A study of Mus musculus with 28 samples.

Results

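The Lhx genes of the mouse encode transcription factors that carry a pair of LIM domains, which bind partner proteins, next to a DNA-binding homeodomain. The 8 members *Lhx1*, *Lhx2*, *Lhx3*, *Lhx4*, *Lhx5*, *Lhx6*, *Lhx8* and *Lhx9* were chosen by name, 8 of the 55450 genes (21951 protein-coding) of the GENCODE vM21 annotation. At each member the H3K4me3 peaks and H3K27me3 islands of the 4 deposited lists were read at the promoter, over the gene body and within 50 kb to either side. Lhx proteins specify neuron types during development, and most are restricted to particular regions and stages. They fall into the paralogue pairs *Lhx1* and *Lhx5*, *Lhx3* and *Lhx4*, *Lhx2* and *Lhx9*, and *Lhx6* and *Lhx8*. Trimethylation of H3K27 is deposited by Polycomb repressive complex 2 and in differentiated cells often spreads over whole developmental genes that are kept silent. Trimethylation of H3K4 marks the promoters of active genes, and promoters that carry both marks are called bivalent.

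Nuclei came from the striatum of C57BL/6J mice of both sexes, about 8 weeks old, that carried the Sun1-sfGFP nuclear tag with either A2a-cre (Sun1-sfGFP;A2a-cre) or Drd1-cre (Sun1-sfGFP;Drd1-cre). The tag is preceded by a loxP-flanked stop cassette, so it is made wherever Cre was active, in indirect-pathway (A2a) or direct-pathway (D1) medium spiny neurons (MSNs), and any other cell of these mice in which Cre had been active would be tagged too. Tagged nuclei of 1 mouse at a time were captured by INTACT on antibody-coated beads, and the hPTMs were profiled on them by CnR, with the Abcam antibody for H3K4me3 and the Active Motif antibody for H3K27me3. Of the 28 samples in the series, 8 are pooled in the 4 lists, 2 replicates in each, and the other 20 were not analysed here.

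Because each list pools its replicates, no value below has a spread between mice and no difference between A2a and D1 was tested across mice. Intervals cover counting error only. The total reads of the libraries are not part of the lists, and reads and fold enrichments were not normalized between them. A list pools many nuclei, so a smaller share of marked nuclei and less mark per nucleus cannot be told apart. A gene without a peak or island is one at which nothing passed the authors' threshold.

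The labels of the 2 D1 H3K27me3 samples conflict, with D1 in the title and cell type and A2a in the source name. They are treated as D1 here, and any H3K27me3 contrast of the cell types depends on that choice. At the marker genes of the other pathway, H3K27me3 was the larger in each list. In the list taken as D1, islands of 7.80 to 45.0 kb covered the promoters of the A2a markers *Adora2a*, *Drd2*, *Penk* and *Gpr6*, and in the A2a list islands of 16.8 to 61.0 kb covered those of the D1 markers *Drd1*, *Pdyn*, *Tac1* and *Isl1*. In the list of their own pathway the longest was 3.4 kb for the A2a markers and 5.80 kb for the D1 markers. The H3K4me3 peak calls did not separate the pathways, since all 4 A2a and all 4 D1 markers held a promoter peak in each list. The promoters of the 6 genes fixed as markers of striatal projection neurons held no island in either list, and 5 of the 6 held an H3K4me3 peak in each. *Gad1*, which makes GABA, was the one without a peak in its window. Of the 4 oligodendrocyte markers 2 held a peak in each list, of the 4 astrocyte markers 1 did in each, and of the 4 microglia markers 1 did in A2a and 0 in D1. The H3K4me3 lists also differed on the sex chromosomes, with 2 peaks on chromosome Y and 1 at *Xist* in A2a against 7 and 0 in D1. The part of these other cells and of the sexes of the mice in the values below was not tested.

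Promoter sequences, taken from RefSeq (GRCm38.p6, 250 bases before to 50 after a start site), are shown for the members on which the H3K4me3 result turns, written 5′ to 3′ along the gene's strand with every CG in capitals. CG dinucleotides are printed in capitals because CpG-dense promoters are the ones that most often carry H3K4me3. The table held 11 promoters of 7 members. The first *Lhx2* sequence (chr2:38339031-38339330, plus strand, 34 CG) spans the start site at which A2a and D1 differed in both marks. The second (chr2:38351058-38351357, plus strand, 29 CG) lies 12 kb downstream, close to the peak that both lists held inside the gene. *Lhx1* (chr11:84525485-84525784, minus strand, 31 CG) is a promoter of similar CpG density without a peak, and *Lhx9* (chr1:138842395-138842694, minus strand, 6 CG, 6.13 kb inside the gene) and *Lhx8* (chr3:154330511-154330810, minus strand, 4 CG) are stretches with fewer CG and no peak. The *Lhx9* stretch lies outside the promoter window that was scored for that gene, which held 85 CpG. The promoters not printed also held no peak, those of *Lhx3* (13 and 28 CG), *Lhx4* (19) and *Lhx6* (16, 17 and 11).
Lhx2, first promoter: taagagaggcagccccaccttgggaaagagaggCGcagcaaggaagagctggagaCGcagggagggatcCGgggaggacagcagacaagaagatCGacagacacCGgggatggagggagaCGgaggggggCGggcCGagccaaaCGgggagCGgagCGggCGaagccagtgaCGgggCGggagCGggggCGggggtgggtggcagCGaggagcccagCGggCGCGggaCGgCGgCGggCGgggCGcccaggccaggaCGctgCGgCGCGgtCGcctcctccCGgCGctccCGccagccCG
Lhx2, internal promoter: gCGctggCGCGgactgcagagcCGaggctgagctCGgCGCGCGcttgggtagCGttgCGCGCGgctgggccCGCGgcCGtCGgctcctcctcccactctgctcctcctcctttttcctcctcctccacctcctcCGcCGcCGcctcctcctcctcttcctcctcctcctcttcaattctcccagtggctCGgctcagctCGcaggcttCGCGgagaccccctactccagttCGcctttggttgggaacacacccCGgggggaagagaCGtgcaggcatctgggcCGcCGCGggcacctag
Lhx1: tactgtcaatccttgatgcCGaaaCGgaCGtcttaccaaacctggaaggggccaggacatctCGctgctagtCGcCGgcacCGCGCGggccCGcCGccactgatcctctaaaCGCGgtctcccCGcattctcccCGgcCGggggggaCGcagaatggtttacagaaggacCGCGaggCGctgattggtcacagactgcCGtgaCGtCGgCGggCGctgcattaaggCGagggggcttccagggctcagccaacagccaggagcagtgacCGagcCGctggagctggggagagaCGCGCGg
Lhx9: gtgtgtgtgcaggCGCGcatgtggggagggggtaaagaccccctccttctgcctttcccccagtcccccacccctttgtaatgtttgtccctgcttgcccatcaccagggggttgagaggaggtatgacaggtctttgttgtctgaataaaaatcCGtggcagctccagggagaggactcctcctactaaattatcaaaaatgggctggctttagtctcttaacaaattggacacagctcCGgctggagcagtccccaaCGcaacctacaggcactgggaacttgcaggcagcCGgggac
Lhx8: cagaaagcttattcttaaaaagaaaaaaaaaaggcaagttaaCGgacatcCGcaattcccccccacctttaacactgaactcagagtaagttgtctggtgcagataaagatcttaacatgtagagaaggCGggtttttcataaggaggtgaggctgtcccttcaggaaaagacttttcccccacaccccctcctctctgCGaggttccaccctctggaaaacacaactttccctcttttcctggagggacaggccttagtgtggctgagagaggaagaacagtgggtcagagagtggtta
Over all 32851 promoters of that table the median number of CG was 7.0 and 94.6% held at least 1. The CG content lay at percentile 92.3 for the first *Lhx2* promoter and 87.1 for the internal one. It lay at 89.4 for *Lhx1*, 43.6 for *Lhx9* and 31.4 for *Lhx8*. The A2a island covered all 5 stretches in full. The D1 islands covered 4 of them in full and none of the 300 bases of the first *Lhx2* promoter.

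H3K27me3 was called at the promoter of every Lhx gene in both cell types. An island of the A2a list overlapped the promoter window, from 2 kb upstream to 1 kb downstream of the annotated TSS, at 8 of 8 members, against 19.3% of all annotated genes and 21.6% of protein-coding genes. In D1 the count was again 8 of 8, against 13.1% of all genes and 15.3% of protein-coding genes. A promoter island in both lists was held by 14.3% of protein-coding genes. The islands were also among the strongest of their lists. By reads, the promoter island stood in the top 5% of its list at 8 members in A2a and at 7 in D1, all but *Lhx2*, where 5.43% and 4.12% of protein-coding genes did. The median percentile of the members' promoter islands was 99.6 in A2a and 99.5 in D1, against 82.9 and 83.9 for protein-coding genes that had an island.

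H3K4me3 was called at few of the same promoters. A peak overlapped the promoter window of 1 of 8 members in A2a, *Lhx2*, against 30.1% of all genes and 58.2% of protein-coding genes. In D1 the count was 0 of 8, against 28.6% and 55.8%. Both marks were thus called together at 1 promoter in A2a (background 4.96% of all and 9.53% of protein-coding genes) and at 0 in D1 (2.87% and 5.56%). No member was without either mark, where neither was called at 55.5% of all and 29.7% of protein-coding genes in A2a and at 61.2% and 34.5% in D1. Of the 1193 protein-coding genes with a top 5% promoter island in A2a, 611 (51.2%) also held a peak, as did 366 of 905 (40.4%) in D1. Over the whole gene body, *Lhx2* was again the 1 member with a peak in either list, against 63.3% of protein-coding genes in A2a and 60.6% in D1.

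**Figure D1:**
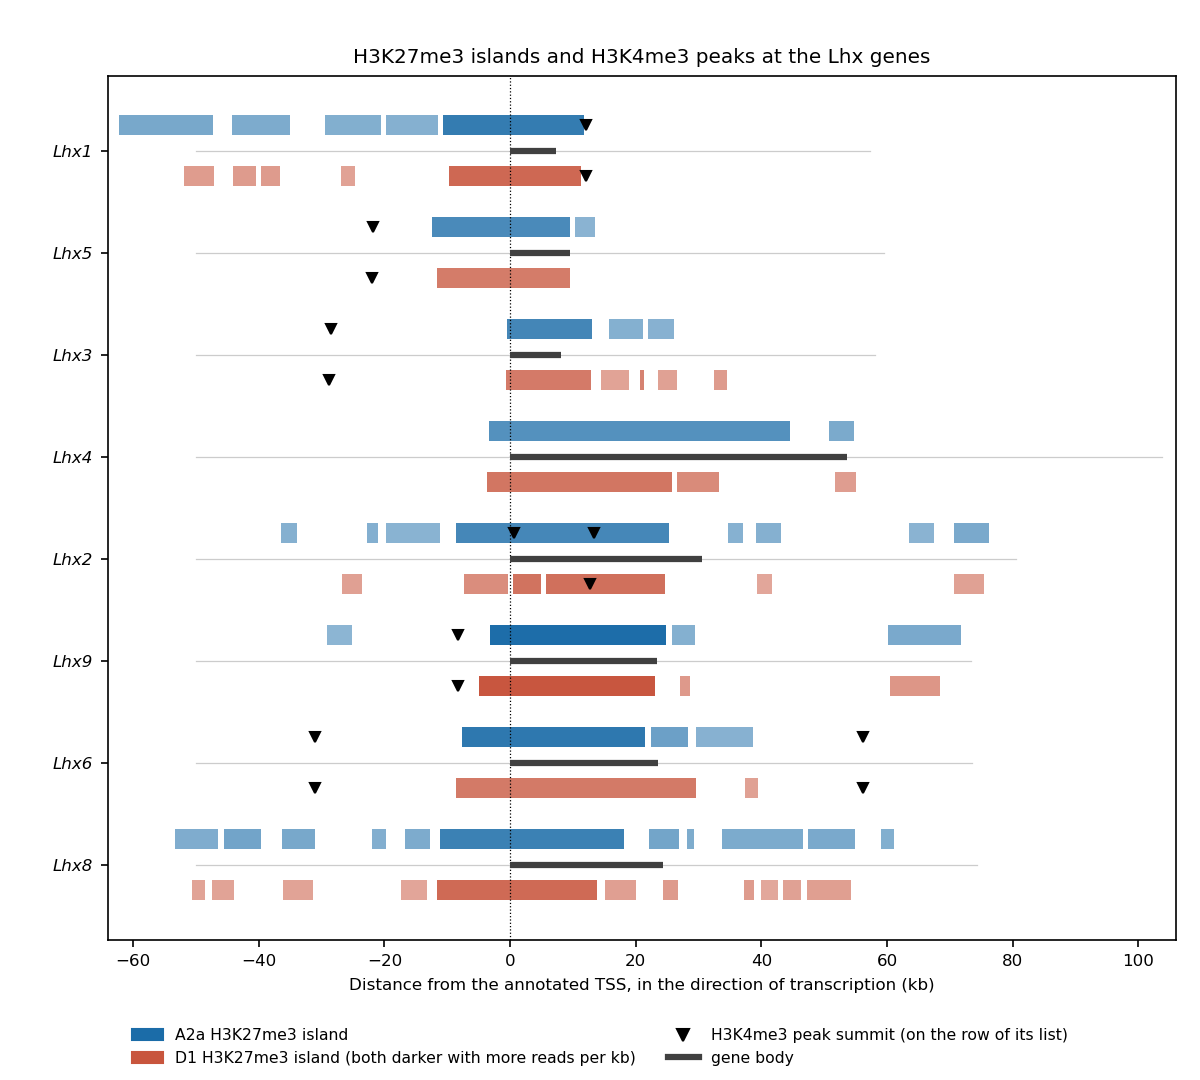
H3K27me3 islands (bars, A2a above and D1 below each gene line, darker with more reads per kb) and H3K4me3 peak summits (triangles) are drawn by distance in kb from each annotated TSS along the direction of transcription; thin grey lines span the gene and 50 kb to either side. A dark island lies over the TSS of all 8 genes in both lists, except the 0.80 kb gap at *Lhx2* in D1, and the triangles inside a gene body are those of *Lhx2*.

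*Lhx1* and *Lhx5* act in the early head and forebrain and in the differentiation of several neuron types, Purkinje cells among them. The A2a island at *Lhx1* (chr11:84518284-84525535, minus strand) measured 22.4 kb and held 4096 reads, and the D1 island measured 21.0 kb and held 1912. Both covered the whole 7.25 kb gene and reached about as far upstream, 10.7 kb in A2a and 9.66 kb in D1. At *Lhx5* (chr5:120431699-120441223, plus strand) the A2a island measured 22.0 kb with 3302 reads and the D1 island 21.2 kb with 1518. The downstream edge of the *Lhx5* island was the same to the window in the 2 lists, 9.50 kb from the TSS and just short of the 3′ end of the gene. The upstream edges lay 0.80 kb apart. The islands of these paralogues, on different chromosomes, were thus of like size in both cell types.

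*Lhx3* and *Lhx4* are needed for the pituitary and for spinal motor neurons, cell types outside the striatum. The *Lhx3* island (chr2:26200212-26208289, minus strand) was the shortest in A2a, at 13.6 kb and 2156 reads, and had the same length in D1, where it held 987 reads. It began only 0.511 kb upstream of the TSS in A2a and 0.711 kb in D1, so that *Lhx3* was the 1 member whose promoter window was not wholly within 1 island in either list, with 50.4% and 57.0% of it covered. Windows wholly within 1 island were found at 7 members in A2a and 6 in D1, against 10.2% and 6.01% of protein-coding genes. *Lhx4* (chr1:155698031-155751684, minus strand), the longest member at 53.7 kb, had the longest A2a island of the family, 47.8 kb with 6450 reads, which ran from 3.32 kb upstream to 44.5 kb downstream of the TSS. In D1 the island began at nearly the same place, 3.72 kb upstream, and ended at 25.7 kb, with 29.4 kb and 2281 reads. It was followed after a gap by a second D1 island of 6.80 kb with 384 reads. Islands covered 88.4% of the *Lhx4* body in A2a and 64.2% in D1, the lowest D1 value of the 8.

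*Lhx2*, which acts in the eye field and in cortical progenitors, was the member at which the smallest share of the A2a-covered sequence (59.9%, gene and 50 kb around) was covered in D1, and the 1 member at which the lists differed in a promoter peak. In A2a a single island of 34.0 kb with 5343 reads ran from 8.68 kb upstream to 25.3 kb downstream of the TSS (gene at chr2:38339281-38369733, plus strand). In D1 the same stretch was split into 3 islands. One of 7.0 kb with 378 reads ended just upstream of the TSS, one of 4.4 kb with 353 reads began 0.520 kb downstream, and one of 19 kb with 1574 reads ran from 5.72 to 24.7 kb. The TSS itself lay in the first gap, 800 bp at chr2:38339001-38339800, and 5 of the 7 annotated *Lhx2* start sites lay in a D1 island against 7 of 7 in A2a. The second gap was also 800 bp, and by the gap setting of the island lists this is the shortest gap that leaves islands unjoined. Whether more D1 reads would have joined the 3 pieces was not tested. Taken singly, the 2 D1 promoter islands ranked at percentiles 93.41 and 92.59 by reads, below the promoter islands of the other members, while the third, wholly within the gene body, ranked at 99.29.

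The H3K4me3 peaks over *Lhx2* ranked low in both lists. The A2a peak at the promoter was 873 bp long and began 3 bp from the TSS, with a fold enrichment of 5.28 over its local background and a −log10 q of 11, at percentile 20.6 of its list. All 873 bp lay within the A2a island, and 517 bp of them lay where D1 had its gap. Its summit, 0.618 kb downstream of the TSS, fell in an intron. So at this promoter A2a held both marks, the island over the start site and the peak from 3 bp downstream of it. D1 held neither mark over the start site, although the D1 window still touched islands on either side. A second A2a peak of 951 bp (fold enrichment 2.90, −log10 q 8.54, percentile 14.5) and a D1 peak of 716 bp (fold enrichment 3.13, −log10 q 4.85, percentile 6.60) lay inside the gene, with summits 13.3 and 12.8 kb from the TSS. These internal peaks lay wholly within islands, and their summits were 47 bp (A2a) and 336 bp (D1) from an annotated start of a shorter *Lhx2* transcript. If the start of any transcript is counted as a promoter, *Lhx2* therefore carried both marks in D1 also.

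**Figure D2:**
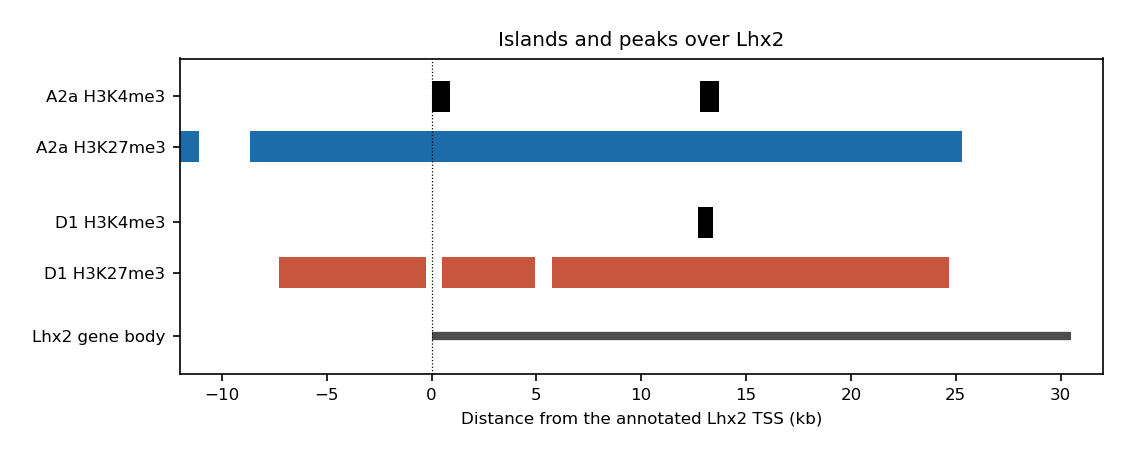
Islands and peaks over *Lhx2* by distance from its annotated TSS (kb), one row for each list and one for the gene body. The A2a peak at the TSS sits inside an unbroken A2a island, the D1 islands leave a gap of 0.80 kb there, and both H3K4me3 lists hold a peak near 13 kb.

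*Lhx9*, the paralogue of *Lhx2* and a gene needed for gonad formation, had no peak of its own and the densest island of the family. The island (gene at chr1:138825186-138848577, minus strand) was 28.0 kb long in both lists, with 6084 reads in A2a and 3046 in D1. At 217 reads per kb, it was exceeded in density by 2 of the 60191 A2a islands, and at 109 reads per kb by 38 of the 45760 D1 islands. The 2 islands were shifted by 1.8 kb at either end, and 93.6% of each was shared.

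*Lhx6* and *Lhx8* act in the medial ganglionic eminence, *Lhx6* in the cortical and striatal interneurons that come from it and *Lhx8* in cholinergic neurons. Both are thus known in the striatum, but from interneurons rather than MSNs. At *Lhx6* (chr2:36081953-36105408, minus strand) the A2a promoter island was 29.0 kb with 5557 reads and was followed by a second island of 6.00 kb with 597 reads at the 3′ end. In D1 a single island of 38.2 kb with 2805 reads covered the whole gene. At *Lhx8* (chr3:154306294-154330659, minus strand) the promoter island was 29.2 kb with 5034 reads in A2a and 25.6 kb with 2276 reads in D1. Shorter islands over the 3′ part of *Lhx8* held 424 reads in A2a and 98 and 178 in D1. Of the 8 interneuron markers, *Sst*, *Npy*, *Chat* and *Nkx2-1* among them, 7 held a promoter island and 0 a peak in each list. *Lhx6* and *Lhx8* likewise held an island and no peak, but not all marker islands were as strong as theirs. In each list 5 markers had an island in the top 5% by reads, and *Cort* had none. *Slc5a7* stood at percentiles 88.5 (A2a) and 54.7 (D1), and *Pvalb* at 89.7 and 91.4. *Chat* and *Slc18a3* had islands of the same length and reads in each list and were each counted.

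Per kb of promoter island, the order of the members in A2a was *Lhx9* (217 reads per kb), *Lhx6* (192), *Lhx1* (183), *Lhx8* (172), *Lhx3* (159), *Lhx2* (157), *Lhx5* (150.1) and *Lhx4* (135). Exact Poisson intervals at the 95% level, which cover counting error only, overlapped for 3 of the 7 neighbouring pairs in this order, those of *Lhx6* with *Lhx1*, *Lhx3* with *Lhx2* and *Lhx2* with *Lhx5*. In D1 the order was *Lhx9* (109), *Lhx1* (91.0), *Lhx8* (88.9), *Lhx4* (77.6), *Lhx6* (73.4), *Lhx3* (72.6), *Lhx5* (71.6) and *Lhx2* (54.0, the island upstream of its gap). The place of *Lhx2* in D1 depends on which island is taken, since its islands downstream of the gap held 80.2 and 82.8 reads per kb, and all 3 together 75.8. Here 4 of 7 neighbouring pairs overlapped, *Lhx1* with *Lhx8* and the run from *Lhx4* to *Lhx5*. *Lhx9* led in both, and *Lhx6* had rank 2 in A2a and rank 5 in D1. Every one of these densities was above the median island of its list, 62.5 reads per kb in A2a and 37.2 in D1.

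The A2a islands held about 2 times as many reads per kb as the D1 islands at every member. Over all islands that touched the gene body or promoter window, the ratio of reads per kb, A2a over D1, was lowest at *Lhx4* (1.85, exact binomial 95% interval 1.77 to 1.93) and highest at *Lhx6* (2.39, 2.29 to 2.50). The other 6 lay between 2.0 at *Lhx9* and 2.18 at *Lhx3*, and the sum over the 8 gave 2.05 (2.02 to 2.09). This ratio carries the unknown depths of the libraries and any other difference between them, so it was set beside that of other regions. The paper reports greater H3K27me3 signal in A2a also when scaled to total mapped reads, in peaks of bulk nucleus accumbens ChIP-seq rather than in these islands. It proposes that factors such as cell number, antibody efficiency or batch, rather than biology, lie behind this. The authors then normalized on the assumption of equal signal at genes expressed alike in both cell types. After that step the paper reports equal H3K27me3 signal globally. Over the 28726 regions with islands of both lists the median ratio of reads per kb was 1.79 (quartiles 1.59 and 2.0). Over the 2788 regions with at least 10 kb of islands in each list it was 1.90 (1.74 and 2.04). *Lhx4* lay below the median of the long regions, at percentile 42.2, and *Lhx6* at percentile 96.3. The *Lhx6* value went with island length, since the D1 island there was the longer one (length ratio 0.916), and by total reads its ratio was 2.19, at percentile 49.2 of the long regions. By total reads the members ranged from 2.0 at *Lhx9* to 2.42 at *Lhx4*, around the median of 2.20 for long regions (quartiles 1.91 and 2.54).

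**Figure D3:**
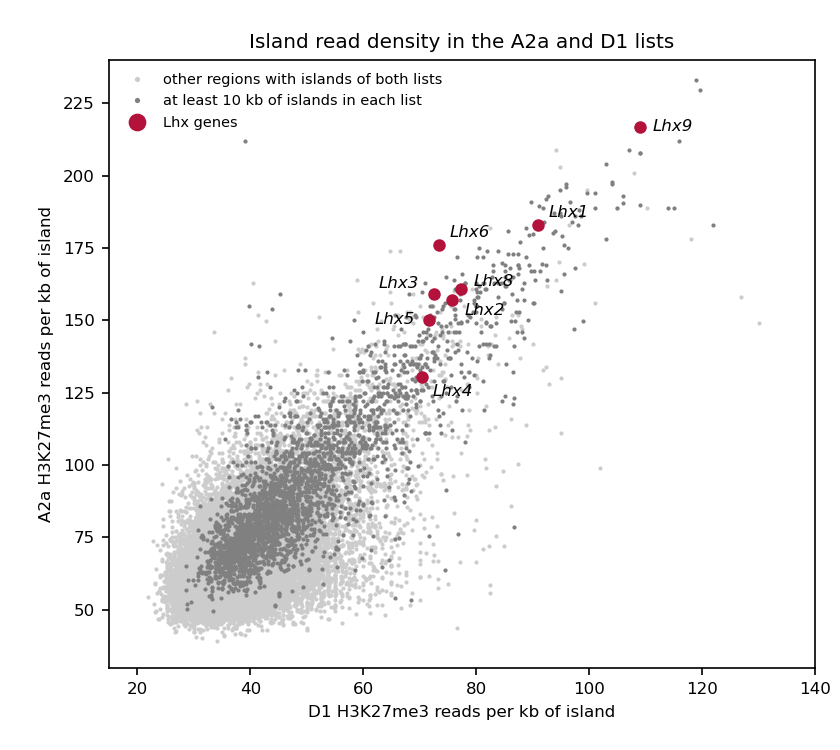
Reads per kb of H3K27me3 island in A2a (vertical axis) against D1 (horizontal axis) for regions with islands of both lists, grey for all and dark grey for those with at least 10 kb in each list; red points are the 8 Lhx genes, over all islands that touch the gene or its promoter window. The Lhx genes lie in the upper range of both lists, *Lhx9* near the top, and *Lhx6*, with a ratio of 2.39, lies toward the upper edge of the long regions.

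Around most of the genes, H3K27me3 continued in weaker islands. The share covered within the gene and 50 kb to either side includes the gene's own islands. It ran from 21.5% (*Lhx3*) to 62.9% (*Lhx8*) of the sequence in A2a, with a median of 37.0%. In D1 it ran from 19.4% (*Lhx5*, its promoter island alone) to 49.1% (*Lhx8*), with a median of 30.5%. Over protein-coding genes the median was 3.87% in A2a and 1.20% in D1, and the members stood at percentiles 84.9 to 98.4 and 92 to 98.7. Summed over the 8 loci, islands covered 384 kb in A2a and 297 kb in D1. The islands that touched neither the gene body nor the promoter numbered 27 in A2a, with 51.8 to 90.7 reads per kb and a median of 66.0, and 22 in D1, with 27.5 to 65 and a median of 34.0. These were densities near the medians of the lists, below those of every promoter island but that of *Lhx2* in D1, which the densest of the 22, a 0.600 kb island near *Lhx3*, exceeded. *Lhx8* had the most of them, 9 in A2a and 8 in D1. *Lhx4* had none in either list, and *Lhx5* had none in D1. Of the D1 sequence covered at each member, 83.1% to 100% was also covered in A2a, and of the A2a sequence 59.9% (*Lhx2*) to 84.5% (*Lhx3*) was covered in D1.

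The H3K4me3 peaks nearest to most of the islands belonged to neighbouring genes. At *Lhx1* a peak of both lists lay at the promoter of *Aatf*, 12.1 kb downstream of the *Lhx1* TSS, with fold enrichments of 9.17 in A2a and 9.18 in D1. It met the edge of the *Lhx1* island, which it overlapped by 410 bp in A2a and missed by 65 bp in D1. At *Lhx9* a peak at the promoter of *2310009B15Rik*, 8.22 kb upstream in A2a and 8.21 kb in D1, had fold enrichments of 16 and 13.1 and stayed 4743 and 2943 bp clear of the island. At *Lhx6* the peaks of *Ndufa8* and *Morn5*, 56.2 kb downstream, and of *Rbm18* and *Mrrf*, 31.1 kb upstream, ranked at percentiles 96.1 to 98.6 of their lists and flanked the island on both sides. *Qsox2* held the peaks near *Lhx3*, 28.5 (A2a) and 28.8 kb (D1) upstream. *Lhx5* differed from these, since the peaks 21.8 (A2a) and 21.9 kb (D1) upstream of it, with fold enrichments of 12.1 and 7.88, had no annotated gene start nearer than that of *Lhx5* itself and lay 8637 and 9273 bp outside its island. *Lhx4* and *Lhx8* had no peak within 50 kb of the gene in either list, and the nearest were 61.1 and 266 kb from their start sites.

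In all, 29 annotated genes had a gene body within 50 kb of that of a member. The promoters of some lay farther off, as at *Slc44a5* (357 kb from the *Lhx8* TSS) and *Acbd6* (194 kb from that of *Lhx4*). Neighbours that shared a peak, such as *Ndufa8* and *Morn5*, were each counted. Of the 14 protein-coding ones, 11 held a promoter peak in each list, and 2 in A2a and 1 in D1 held a promoter island. Of the 15 others, mostly noncoding RNA genes, 11 in A2a and 8 in D1 held an island. For 7 of these 15, among them the divergent transcripts *Lhx1os* and *AI606473* beside *Lhx1* and *Lhx8* and the antisense genes *Gm27199*, *Gm27196*, *Gm27197* and *Gm13584*, it was the island of the Lhx gene itself in each list.

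The promoters of the Lhx genes ranged from CpG-poor to CpG-dense. The 3001 bp promoter windows held from 31 CpG (*Lhx4*) and 41 (*Lhx3*) to 166 (*Lhx1*), with 85 at *Lhx9*, 114 at *Lhx6*, 115 each at *Lhx2* and *Lhx8* and 125 at *Lhx5*. At *Lhx8* the 300 bases at the start site are thus poorer in CG than the wider window. The median was 114 against 72.0 over 21938 protein-coding genes, and the GC content ran from 49.2% to 56.5%. Of the 5079 protein-coding genes with at least 114 CpG in the window, 95% held an H3K4me3 peak in A2a and 93.4% in D1, and 19.2% and 15.5% held an island. *Lhx1*, *Lhx5*, *Lhx6* and *Lhx8* are in that CpG-dense class and held an island and no peak in either list, and *Lhx2* is the member of the class with a peak in A2a. The 2 CpG-poor members, *Lhx3* and *Lhx4*, lay at percentiles 31.7 and 24.2, where most genes lacked a peak. Of the 1429 genes in the bin of *Lhx3* (40 to under 50 CpG), 28.6% held a peak in A2a and 25% in D1, and of the 1686 in that of *Lhx4* (30 to under 40 CpG), 15.8% and 12.4%. *Lhx9* held no promoter peak in either list, whereas of the 1473 genes in its bin (80 to under 90 CpG) 90.4% did in A2a and 86.9% in D1.

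**Figure D4:**
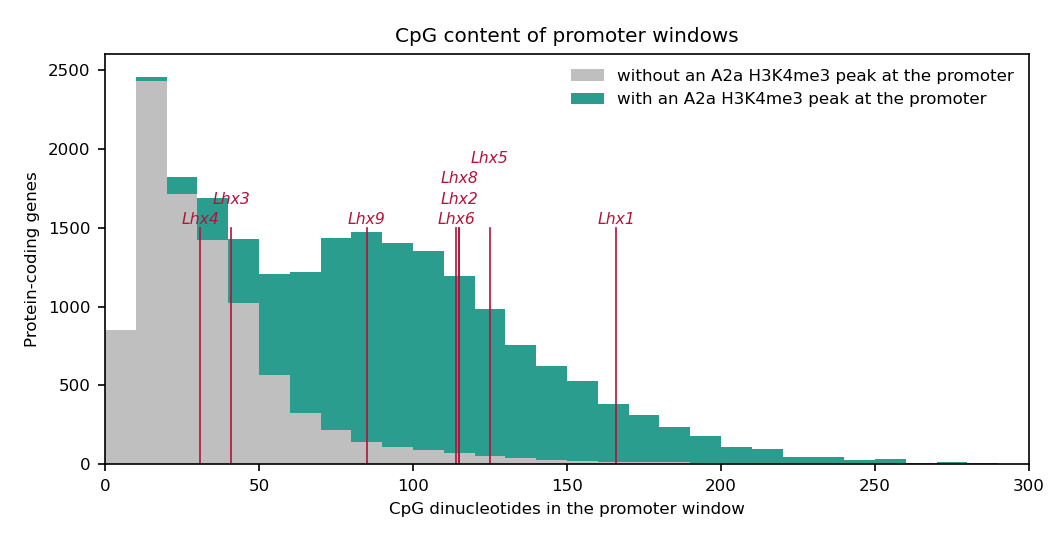
Number of protein-coding genes by CpG dinucleotides in the promoter window (bins of 10), stacked by whether the promoter held an A2a H3K4me3 peak (green) or not (grey); red lines mark the 8 Lhx genes. From 114 CpG upwards nearly every gene is in the green part, 95%, and of the 5 Lhx genes there *Lhx2* is the 1 with a peak.

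The other LIM homeodomain genes, *Isl1*, *Isl2*, *Lmx1a* and *Lmx1b*, held islands at 4 of 4 promoters in each list and a peak at 1, *Isl1*, in each. *Isl1*, known as a factor of D1 MSNs, had unlike islands in the 2 lists. Its A2a island measured 31.2 kb with 6620 reads, at percentile 99.8, and its D1 island 5.80 kb with 229 reads, at percentile 85.1. The *Isl1* peak stood at percentile 14 of the A2a list and 44.1 of the D1 list. Its fold enrichment had the opposite order, 3.68 in A2a and 2.68 in D1. None of the 8 Lhx genes had a D1 island that short beside an A2a island of that size, apart from the pieces at *Lhx2*, which added up to 30.4 kb and 2305 reads over the gene. Among the LIM-only genes *Lmo1* to *Lmo4*, whose proteins have LIM domains and no homeodomain, 1 of 4 (*Lmo1*) held an island and 3 of 4 a peak in each list. The 6 cofactor genes *Ldb1*, *Ldb2*, *Ssbp2*, *Ssbp3*, *Ssbp4* and *Rlim*, whose products bind LIM domains or regulate that binding, held a peak in 6 of 6 cases and an island in 0 of 6 in both lists. *Ldb1*, the partner through which Lhx proteins assemble, had fold enrichments of 4.57 in A2a and 4.54 in D1.

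Other homeobox and related families resembled the Lhx genes in their counts. All 9 Pax genes held islands in both lists, with 1 peak in A2a (*Pax6*) and 0 in D1. The 10 genes of the Nkx2 and Nkx6 groups held 10 islands in A2a and 9 in D1, with 3 and 1 peaks, and the 6 Irx genes 6 islands in each with 2 and 1 peaks. The median length of the promoter islands was 28.5 kb (A2a) and 23.4 kb (D1) for the Lhx genes, 46.8 and 36.8 kb for Pax, 31.3 and 29.4 kb for Nkx, and 42.8 and 27.7 kb for Irx. The Lhx median was thus the shortest of these families in both lists, with the 7.0 kb piece taken for *Lhx2* in D1. The counts do not set the family apart from them.

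**Figure D5:**
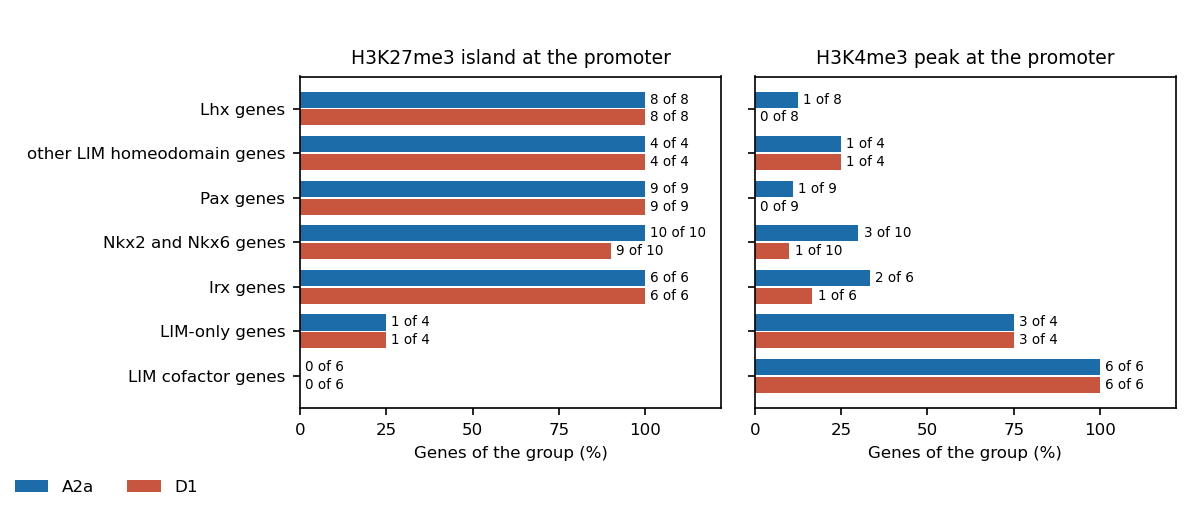
Share of genes (%) with an H3K27me3 island (left) and an H3K4me3 peak (right) at the promoter, by gene group, blue for A2a and red for D1, with the counts beside each bar. Islands reach 8 of 8 for the Lhx genes and 0 of 6 for the LIM cofactor genes, and peaks the reverse, 1 and 0 of 8 against 6 of 6.

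By 4 values, the percentiles of the strongest promoter island and the strongest promoter peak in each list (0 where there was none), the protein-coding gene most like each member was *Ebf2* for *Lhx1*, *Neurog3* for *Lhx5*, *Igf2bp1* for *Lhx3*, *Nkx2-3* for *Lhx4*, *Pax1* for *Lhx9*, *Sox14* for *Lhx6* and *Alx1* for *Lhx8*, at Euclidean distances of 0.00275 to 0.0498 percentile points. For *Lhx2* the nearest was *Fzd6*, at a distance of 2.50, with an A2a island at percentile 98.97, a D1 island at 95.67 and an A2a peak at 19.8. By these values the nearest gene was farther from *Lhx2* than from any of the other 7 members. Those 7 and their nearest genes had 0 for both peaks, so their distances rested on the island percentiles alone.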

How the data were processed

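The authors mapped CnR reads to mm10 (GRCm38) with bowtie2 (version 2.1.0, per the submitters' processing notes, with SAMtools version 0.1.19), kept well-mapped, deduplicated pairs and called features on the 2 pooled replicates of each cell type and antibody. For H3K4me3 (MACS2), the deposited values used are a −log10 q-value, the summit position and a fold enrichment, the ratio of a peak's pileup to its local background. For H3K27me3 (SICER, against a control that the sources used here do not name), the deposited value is a count of reads per island, not normalized for depth. The study gives only an approximate range of reads over its samples, and the lists hold no total for any library, so no precision beyond counting error is given.

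Features were placed by their deposited coordinates, counted from 1, on GENCODE vM21. A peak or island was counted with at least 1 bp of overlap with the promoter window. Percentiles rank islands by reads and peaks by −log10 q within their own list. Counts are given beside the same share over all genes, and no test was made, since the lists hold no replicates. Reads per kb of A2a and D1 were set side by side as a ratio with exact binomial intervals. All 8 members are named, with lists of related genes, neighbours and cell type markers, and for each member the 1 protein-coding gene with the smallest Euclidean distance over 4 percentiles. The members and lists were chosen with earlier results of these data known. In all, 9 results were recomputed under 57 alternatives. Sequences are RefSeq's (GRCm38.p6). The overlap procedure was checked on simulated islands for missed hits, but not for false ones. Simulated counts with a known ratio returned it, a check that did not run the island ratios. The intervals were not tested. The software was Python 3.11.15 with numpy 2.4.6 and scipy 1.17.1, and figures were drawn with matplotlib 3.10.9.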

Additional observations from a re-analysis of the deposited data

How the results depend on the processing

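Of the 57 alternatives, 41 kept the value reported, which for counts and covered lengths means the same number and for the ratio a value within its counting interval. They include 38 of the 40 run on the 6 promoter counts. The other 2 counted each transcript start as a TSS, which made the D1 counts of *Lhx* promoters with an H3K4me3 peak and with both marks 1 and 1, through the internal *Lhx2* start. The D1 peak there has a −log10 q of 4.85 and would not pass a minimum of 5. The covered length of 384 kb (A2a) and 297 kb (D1) was 318 and 255 kb with flanks of 25 kb, 532 and 344 kb with flanks of 100 kb, 381 and 293 kb with islands of at least 2000 bp, and 430.2 and 323 kb with islands within 5 kb merged. With equal numbers of islands it was 379 kb in A2a. The ratio of reads per kb, 2.05, was 1.15 when divided by the median over shared regions, 1.08 by that over shared regions of at least 10 kb, 1.20 by the ratio of all island reads per kb, and 1.99 without *Lhx6*, the last 3 chosen after seeing the data. Divided by the ratio of all island reads it was 0.732, below 1. That divisor is one of total reads and also holds the difference in length called, 301 Mb in A2a against 184 Mb in D1. No paired analysis was possible because the deposited lists pool the replicates, and for the same reason no replicate could be left out. The unknown depth of each library limits what a missing peak or an island gap, such as that of D1 at *Lhx2*, can show.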
